A study of Mus musculus with 27 samples.

Results

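The cholesterol synthesis and transport genes form a set of 31 genes among the 26264 gene symbols of the deposited table, which lists symbols in lower case. They were taken by name: 7 genes of the early mevalonate pathway, 3 of squalene and lanosterol formation, 8 of the later sterol steps, 5 of sterol sensing, 3 of sterol transport, 3 around the liver X receptors (LXR), and 2 of esterification and removal. RNA came from 1 cortex block per hemisphere of 16-week-old female 5xFAD mice on a C57BL6 background, which carry human transgenes, APP among them, with familial Alzheimer's disease mutations under the neuronal Thy1 promoter. Each mouse received 500 nL of vehicle, 10 mM R33 or 10 mM R55 in the lateral parietal association cortex of one hemisphere, and tissue was taken after 24 h. R33 and R55 are thiophene thioureas given as hydrochlorides and described as pharmacological chaperones of the retromer, a complex that sorts cargo out of endosomes. The vehicle, DMSO with sulfobutylether beta-cyclodextrin in saline, was shared by every injected hemisphere, and no wild-type, saline or uninjected mice were analysed here. The 27 libraries came from 14 mice: 4 with vehicle (AH, J, L and M), 5 with R33 (AD, AE, K, N and O, with the contralateral library of AE not among them) and 5 with R55 (AA, AB, P, Q and R).

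Cells make cholesterol from acetyl-CoA through mevalonate, squalene and lanosterol. When membrane sterol is low, SCAP escorts SREBP2 from the endoplasmic reticulum to the Golgi, and the released factor switches on nearly all enzymes of the route together with the LDL receptor; INSIG1 and INSIG2 hold SCAP back when sterol is high. Oxysterols activate the LXR receptors, which raise the exporters ABCA1 and ABCG1, SREBP1c and the ubiquitin ligase MYLIP. The brain makes its own cholesterol, largely in astrocytes and oligodendrocytes in the adult, and neurons remove it as 24S-hydroxycholesterol through CYP46A1. Since the tissue was bulk cortex, fewer cells of a type and less RNA per cell cannot be told apart for any of these genes. Beta-cyclodextrins as a class can bind sterols, and the vehicle held one in all 3 treatments.

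Stretches upstream of 4 members were read from RefSeq's promoter table (build GRCm38.p6), placed on GRCm39 by exact match and kept outside annotated untranslated regions. They stand for an early mevalonate enzyme whose stretch holds the sterol element (Hmgcs1), a kinase that covaried with Insig1 across mice (Mvk), the SREBP target that anchors SCAP (Insig1) and the LXR target with the widest spread (Abca1). Capitals mark matches on either strand to CCAAT, the box bound by NF-Y, and to TCACNCCAC, a sterol regulatory element, which did not overlap each other in these stretches.
Hmgcs1: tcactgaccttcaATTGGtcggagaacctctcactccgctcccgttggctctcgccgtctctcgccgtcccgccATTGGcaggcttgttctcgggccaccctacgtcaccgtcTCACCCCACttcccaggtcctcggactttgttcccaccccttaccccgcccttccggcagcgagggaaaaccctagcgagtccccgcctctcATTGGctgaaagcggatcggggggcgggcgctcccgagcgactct
Mvk: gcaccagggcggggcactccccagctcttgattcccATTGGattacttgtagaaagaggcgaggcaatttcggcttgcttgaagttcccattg
Insig1: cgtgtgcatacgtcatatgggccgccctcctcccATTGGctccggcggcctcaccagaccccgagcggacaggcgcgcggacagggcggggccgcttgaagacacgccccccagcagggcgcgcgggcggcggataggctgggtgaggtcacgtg
Abca1: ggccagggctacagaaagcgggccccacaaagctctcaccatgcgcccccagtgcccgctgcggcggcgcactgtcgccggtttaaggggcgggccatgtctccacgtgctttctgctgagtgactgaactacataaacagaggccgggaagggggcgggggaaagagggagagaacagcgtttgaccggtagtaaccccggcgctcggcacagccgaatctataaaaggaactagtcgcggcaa
They lie at chr13:120151637-120151886 (plus strand), chr5:114582174-114582266 (plus strand), chr5:28276160-28276314 (plus strand) and chr4:53159901-53160145 (minus strand), each written 5′ to 3′ on the strand of its gene. An exon of a long noncoding RNA gene, Gm60502, lies in the Hmgcs1 stretch. CCAAT was found 3 times in the Hmgcs1 stretch, 1 time each in those of Mvk and Insig1, and 0 times in that of Abca1. Trimming left these stretches unequal, at 250, 93, 155 and 245 bases in the order printed. Over the full 250 bases before the start, CCAAT matched 3 times for Hmgcs1, 5 for Mvk, 1 for Insig1 and 0 for Abca1. Over windows from 250 bases before to 50 bases after the start, CCAAT occurred, in any promoter of the gene, in 21 of the 26 members with an entry (80.8%) and in 14 of 15 synthesis enzymes (93.3%), against 42.3% of the 10297 tested genes with an entry. Counted per promoter, it occurred in 22 of the 35 promoters of members (62.9%), against 37.4% of all 32851 promoters. GGGCGG, the GC box, occurred in 23 of 26 members (88.5%), against 69.3% of tested genes, and in 27 of 35 promoters of members (77.1%), against 35.7% of all. The sterol element TCACNCCAC matched 1 of the 35 promoters, that of Hmgcs1 shown above, against 1.24% of all promoters. These letter matches are descriptions of the windows and not binding sites. No entry was read for Sqle, Fdps, Fdft1, Stard4 or Abcg1.

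All 31 members were listed, and 30 had a mean of at least 1 FPKM (fragments scaled to transcript length and library size) over the 27 libraries, the filter that left 12976 genes for testing. Libraries held 15932200 to 38077000 fragments, and each tested member had 37 or more of them in every library. FPKM is per length, so that levels can be set side by side between genes. The highest level was that of cyp46a1, the neuronal 24-hydroxylase, at 98.3 ± 11.03 FPKM (mean ± SD, n = 27 libraries), followed by hmgcs1, the cytosolic HMG-CoA synthase, at 93.8 ± 6.997 FPKM. The SREBP2 gene srebf2 (67.1 ± 5.94 FPKM) and the C4-methyl sterol oxidase msmo1 (66.5 ± 6.37 FPKM) came next and did not differ beyond their spread. Below them fdps, insig1, sqle and fdft1 sat between 31.2 and 33.6 FPKM, with SDs of 2.99 to 7.12 FPKM, and did not differ beyond their spread.

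**Figure D1:**
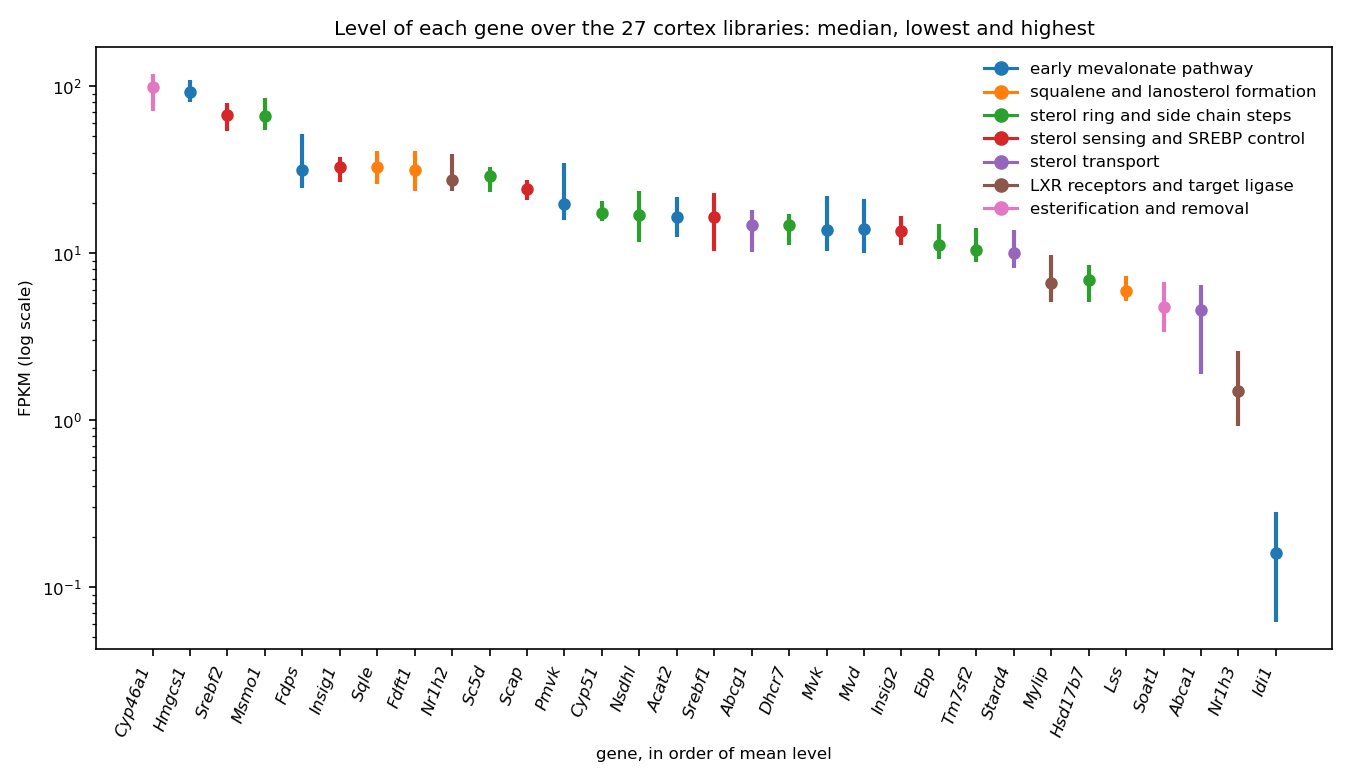
Median level of each of the 31 genes over the 27 libraries in FPKM on a log scale, ordered by mean and coloured by role, with bars from the lowest to the highest library. The 30 tested genes span 1.51 (nr1h3) to 98.3 FPKM (cyp46a1) on average, and idi1 stands alone at 0.158 FPKM.

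The 2 LXR genes lay far apart in level. Nr1h2, encoding LXR beta, was at 28.6 ± 3.54 FPKM and nr1h3, encoding LXR alpha, at 1.51 ± 0.328 FPKM. Among the lanosterol-forming enzymes, sqle (squalene epoxidase) and fdft1 (squalene synthase) were at 32.9 ± 3.23 FPKM and 31.2 ± 3.99 FPKM, whereas lss (lanosterol synthase) was at 6.05 ± 0.609 FPKM. Exporter abca1 was at 4.23 ± 1.07 FPKM and exporter abcg1 at 14.8 ± 1.92 FPKM. The spread over libraries was widest for abca1 among the tested members (coefficient of variation 25.3%, 1.88 to 6.46 FPKM) and narrowest for scap (6.64%) and hmgcs1 (7.46%). The median coefficient of variation was 12.2% over the tested members and 14.1% over all tested genes, and 12 members lay above the latter.

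Isopentenyl-diphosphate isomerase, idi1, which feeds the chain that fdps builds, was listed far below its pathway neighbours. Here and below, libraries are given in the order AH, J, L and M for vehicle, AD, K, N and O (contralateral) or AD, AE, K, N and O (injected) for R33, and AA, AB, P, Q and R for R55. Vehicle levels of idi1 were 0.131, 0.276, 0.192 and 0.109 FPKM contralaterally and 0.166, 0.154, 0.144 and 0.151 FPKM on the injected side. With R33, idi1 was at 0.0763, 0.159, 0.147 and 0.117 FPKM contralaterally and at 0.166, 0.165, 0.0857, 0.155 and 0.1901 FPKM on the injected side. With R55, idi1 was at 0.177, 0.117, 0.176, 0.187 and 0.211 FPKM contralaterally and at 0.176, 0.176, 0.123, 0.2797 and 0.0618 FPKM on the injected side. No group stood apart, and the lowest and the highest library were both injected R55 libraries. These values came from 5 to 21 fragments a library. A processed copy listed as idi1-ps1 had a mean of 0.132 FPKM, so reads of the gene and of near-identical copies may have been split or dropped in counting, and the level of idi1 is uncertain. It was not tested. In the annotation of GRCm39, 11 of the members overlap another protein-coding gene, 10 of them on the opposite strand (among them hmgcs1 with Nim1k, sqle with Washc5 and srebf2 with Shisa8) and tm7sf2 with Vps51 on the same strand. Whether the counting used strand is not given in the sources used here, so their levels may hold reads of the partner.

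The injected library of R33 mouse AD stood apart. It held the highest value of the 27 libraries for 10 members and the lowest for 7. Over the 30 tested members, its log2 difference from the median of the other 26 libraries had r = -0.80 and rho = -0.77 with transcript length, against -0.59 and -0.69 over all tested genes, as a description across genes. Short transcripts were high: pmvk at 1.75 times, fdps at 1.62 times and mvk at 1.57 times that median. Long ones were low: abca1 at 0.517 times, srebf1 at 0.643 times and abcg1 at 0.703 times. The contralateral library of R55 mouse Q had a trend as steep, with r = -0.79 over members and -0.63 over all tested genes. The contralateral libraries of mouse AD (-0.66 over members, -0.38 over all genes) and of R55 mouse AB (-0.65 and -0.37) followed. Next came R55 mice R (injected, -0.49 and -0.12) and AA (contralateral, -0.41 and -0.29). Trends the other way were steepest in contralateral vehicle mouse M (0.61 and 0.20) and injected R33 mouse O (0.52 and 0.10). Vehicle libraries ran from -0.19 (contralateral mouse L) to 0.61 over members, so the trend was uneven between treatments.

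**Figure D2:**
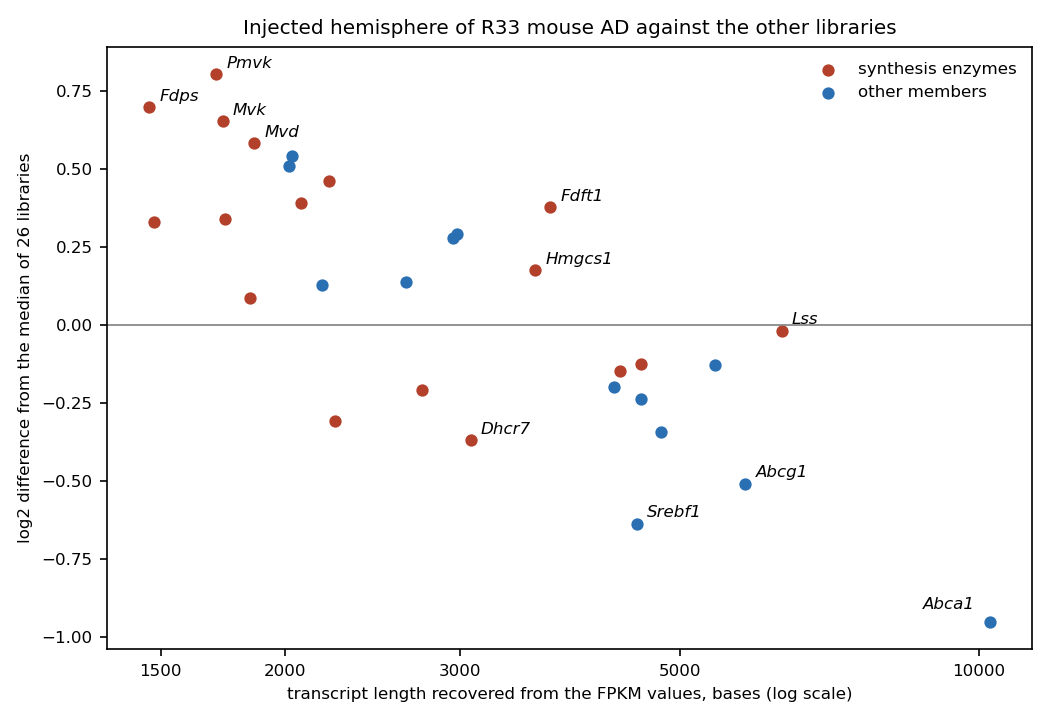
Log2 difference of the injected library of R33 mouse AD from the median of the other 26 libraries (y axis) against transcript length in bases on a log scale (x axis) for the 30 tested genes. Short transcripts such as pmvk and fdps lie above 0 and abca1, the longest, lies lowest, at -0.95.

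To ask whether R55 or R33 altered cholesterol gene expression, each was compared with vehicle in one model of treatment and hemisphere over all 27 libraries. No member was called at an adjusted p (limma, Benjamini-Hochberg over 12976 genes) under 0.05 in either comparison. Over all genes, 1 gene, no member, was called for R55 (0.00771%) and 0% for R33, where 762 genes had an unadjusted p under 0.05. At that unadjusted threshold, 0 of 30 members stood for R55 against 8.45% of all genes, and 1 of 30, tm7sf2, for R33 against 5.87%. For R55, 16 members had a fold change above 0 and 14 below, with a median of 0.010 (log2 of FPKM + 1) against 0.03 over all tested genes. For R33, 18 were above and 12 below, with a median of 0.03 against 0.02 over all genes. Without R33 mouse AD the R33 split was 11 above and 19 below, with the sign changed for 11 of 30 members, and without vehicle mouse J it was 12 and 18 for each compound. Members with an unadjusted p under 0.05 were then 1 for R33 without mouse AD (sc5d, 0.10; all genes 3.78%) and 3 for each compound without mouse J (all genes 12.9% for R55 and 12.8% for R33). Without mouse AD, which enters the R55 comparison only through the shared spread, abca1 and pmvk had an unadjusted p under 0.05 for R55 (all genes 12.8%; limma adjusted p = 0.365 and 0.254), and without R55 mouse Q sqle did (-0.15; all genes 7.85%; limma adjusted p = 0.624). The split for R55 turned to 12 above and 18 below under median-of-ratios scaling and to 11 and 19 with the length trend of each library removed. Differences of 0.5 or more in either direction lay outside the 95% intervals of 29 of 30 members for R55, with abca1 the exception (lower bound -0.52), and of 30 of 30 for R33. These treatment intervals, like those of R55 against R33, take both hemispheres of a mouse as independent and may be too narrow. On the scale of log2 of FPKM + 1, a bound of 0.5 also allows a larger fold change for low genes such as nr1h3. The R55 and R33 comparisons share the 4 vehicle mice. Mice are the replicates, and both hemispheres of a mouse entered as separate libraries; with their correlation modelled, 0 genes were called for R55, 519 genes had an unadjusted p under 0.05, and 0 members did for either compound.

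**Figure D3:**
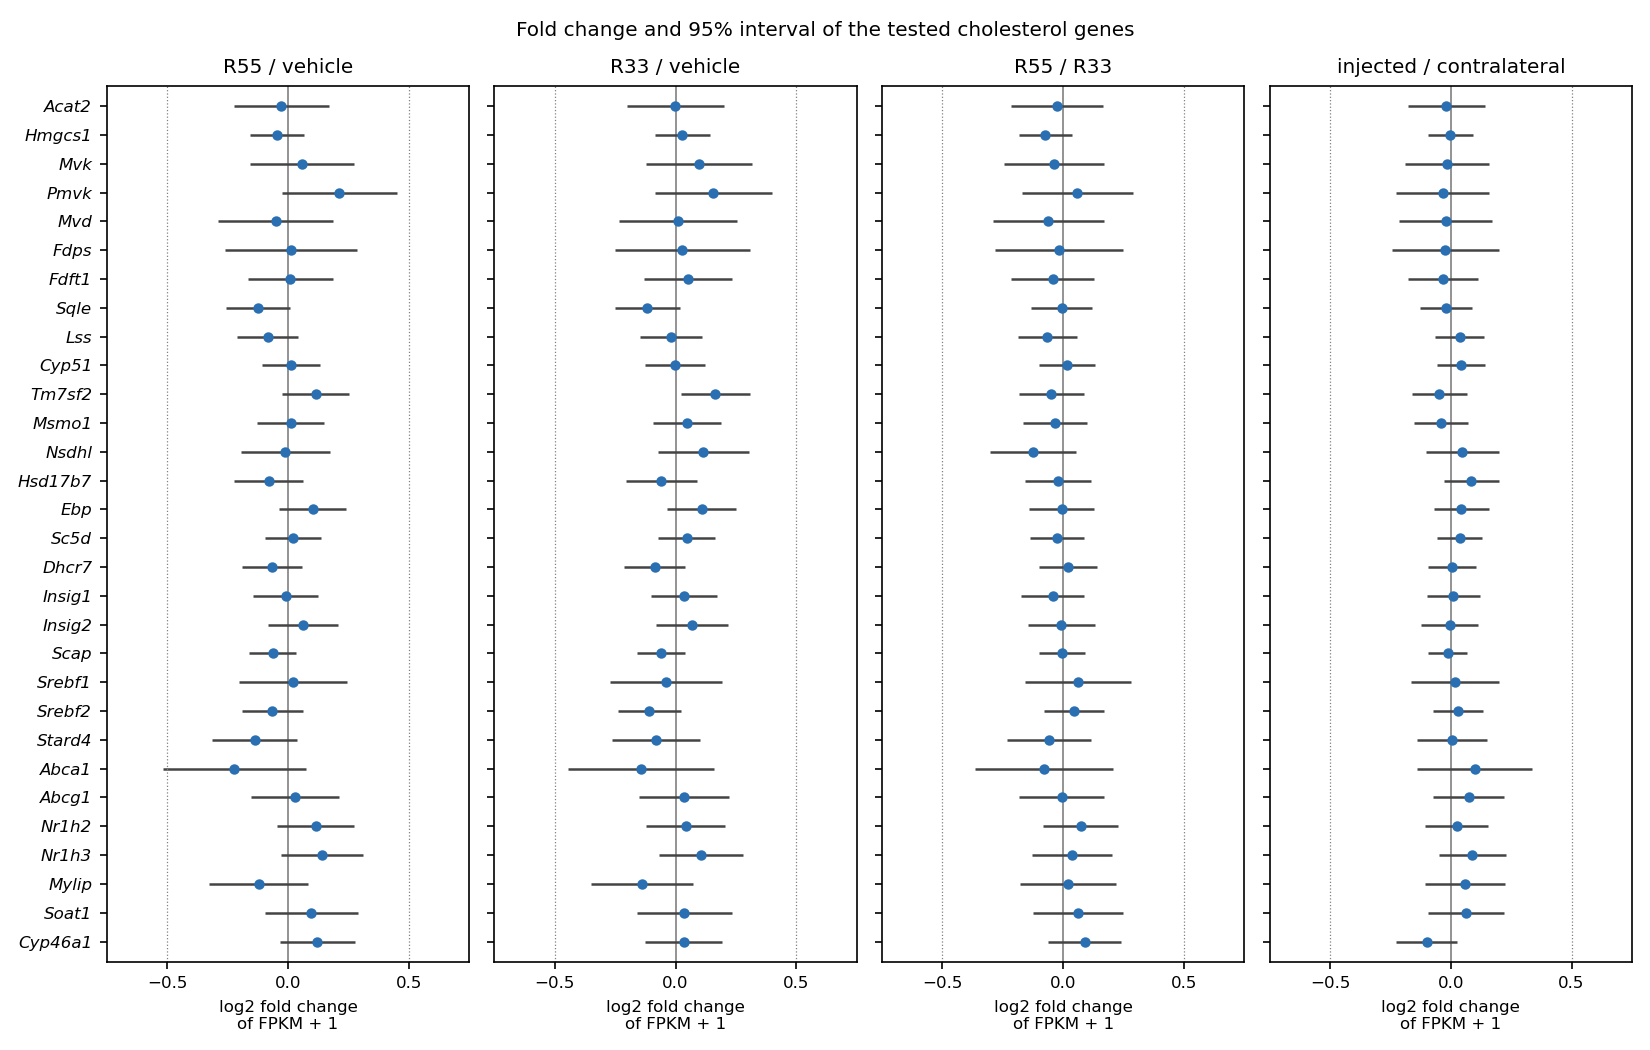
Log2 fold change of FPKM + 1 (x axis) of the 30 tested genes (y axis) for R55 over vehicle, R33 over vehicle, R55 over R33 and injected over contralateral, as points with 95% intervals. The dotted lines mark ±0.5, and the R55 interval of abca1, down to -0.52, is the one that crosses them. The intervals take libraries of one mouse as independent.

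Early mevalonate genes had R55 differences from -0.05 to 0.21 on the log2 scale, the highest being that of pmvk. Of the 6 tested, 3 were above and 3 below vehicle with R55 (median -0.0080) and 5 above and 1 below with R33 (median 0.03), and 0 had an unadjusted p under 0.05. Hmgcs1 (chr13:120151915-120170470, plus strand) makes HMG-CoA. Vehicle levels of hmgcs1 were 97.7, 88.2, 109 and 89.6 FPKM contralaterally and 97.8, 83.8, 96.1 and 91.9 FPKM on the injected side. With R33, hmgcs1 was at 101, 99.5, 88.7 and 95.9 FPKM contralaterally and at 105, 96.3, 101, 89.3 and 88.5 FPKM on the injected side. With R55, hmgcs1 was at 86.5, 92.7, 95.8, 92.6 and 80.9 FPKM contralaterally and at 91.1, 85.1, 92.2, 88.9 and 107 FPKM on the injected side. All groups overlapped, from 80.9 FPKM in the contralateral cortex of R55 mouse R to 109 FPKM in that of vehicle mouse L. Its log2 difference was -0.05 (SE 0.055, 95% interval -0.16 to 0.07, limma adjusted p = 0.766) for R55 and 0.03 (95% interval -0.09 to 0.14) for R33, or -0.0004 without mouse AD.

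Phosphomevalonate kinase, pmvk (chr3:89361758-89376323, plus strand), had the highest R55 difference of the set. Vehicle levels of pmvk were 19.97, 19.9, 17.6 and 15.7 FPKM contralaterally and 21.5, 19.8, 16.5 and 16.3 FPKM on the injected side. With R33, pmvk was at 26.95, 18.03, 16.8 and 18.97 FPKM contralaterally and at 34.9, 21.7, 16.98, 17.8 and 17.6 FPKM on the injected side. With R55, pmvk was at 21.7, 24.8, 19.3, 28.6 and 20.3 FPKM contralaterally and at 22.3, 21.3, 18.8, 17.2 and 21.4 FPKM on the injected side. Contralateral R55 libraries lay at or above 19.3 FPKM, the contralateral vehicle libraries at or below 19.97, and the injected libraries of both overlapped. R33 mouse AD stood above every other mouse on both sides of its brain apart from the contralateral library of R55 mouse Q. The R55 difference was 0.21 (SE 0.115, 95% interval -0.02 to 0.45, limma adjusted p = 0.601), and the R33 difference 0.16 (95% interval -0.09 to 0.40) became -0.0030 without mouse AD. Acat2 (acetoacetyl-CoA thiolase), mvk (mevalonate kinase), mvd (mevalonate diphosphate decarboxylase) and fdps (farnesyl diphosphate synthase) had R55 differences of -0.03, 0.06, -0.05 and 0.01, and R33 differences of -0.00073, 0.10, 0.01 and 0.03, all with intervals across 0. Without mouse AD the R33 differences of mvk, mvd and fdps were -0.0065, -0.11 and -0.08.

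Squalene epoxidase, sqle (chr15:59186869-59203043, plus strand), an oxygen-requiring and flux-controlling step of the route, had the smallest unadjusted p of the members for R55. Vehicle levels of sqle were 34.1, 35.6, 40.9 and 32.2 FPKM contralaterally and 37.1, 31.4, 35.2 and 33.1 FPKM on the injected side. With R33, sqle was at 32.7, 32.1, 34.7 and 31.3 FPKM contralaterally and at 28.1, 36.4, 33.01, 30.5 and 30.1 FPKM on the injected side. With R55, sqle was at 29.7, 31.5, 32.6, 38.8 and 25.998 FPKM contralaterally and at 31.5, 33.3, 31.9, 29.5 and 35.6 FPKM on the injected side. Vehicle libraries ran from 31.4 to 40.9 FPKM, R33 from 28.1 to 36.4 and R55 from 25.998 to 38.8, so that the groups overlapped. Its differences were -0.12 (SE 0.064, 95% interval -0.25 to 0.01, limma adjusted p = 0.589) for R55 and -0.12 (SE 0.065, 95% interval -0.25 to 0.02, limma adjusted p = 0.850) for R33. The R55 difference had an unadjusted p under 0.05 under median-of-ratios scaling (log2 difference -0.15, limma adjusted p = 0.598) and with the length trend removed (-0.17, limma adjusted p = 0.734), where the R33 difference (-0.15, limma adjusted p = 0.919) did as well. Lss was at -0.08 with R55 and -0.02 with R33, and fdft1 at 0.01 and 0.05 (-0.0082 for R33 without mouse AD).

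Among the 8 enzymes of the later sterol steps, 5 were above and 3 below vehicle with each compound (medians 0.01 for R55 and 0.05 for R33). Tm7sf2 (chr19:6112851-6118403, minus strand), a sterol C14-reductase, was the one member with an unadjusted p under 0.05 against vehicle over all libraries. Vehicle levels of tm7sf2 were 8.89, 9.67, 11.6 and 9.08 FPKM contralaterally and 9.86, 9.41, 9.51 and 9.96 FPKM on the injected side. With R33, tm7sf2 was at 11.5, 9.29, 11.2 and 11.5 FPKM contralaterally and at 13.1, 9.76, 10.8, 11.2 and 10.9 FPKM on the injected side. With R55, tm7sf2 was at 10.03, 10.5, 10.4, 14.1 and 11.4 FPKM contralaterally and at 8.94, 9.23, 9.95, 10.8 and 11.3 FPKM on the injected side. Of the 9 R33 libraries, 7 lay above every vehicle library but the contralateral one of mouse L, and the exceptions were contralateral mouse K and injected mouse AE. The R33 difference was 0.16 (SE 0.069, 95% interval 0.02 to 0.31, limma adjusted p = 0.834), and the R55 difference 0.11 (95% interval -0.02 to 0.25). Its unadjusted R33 p was no longer under 0.05 with the correlation between the hemispheres of a mouse modelled, with 1 value per mouse, with the length trend removed, or without mouse AD, AH, J, M, N or O. Vps51 shares a stretch of the same strand with tm7sf2.

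Msmo1 and dhcr7, early and late in the sterol branch, overlapped across treatments. Vehicle levels of msmo1 were 63.4, 78.04, 64.97 and 58.1 FPKM contralaterally and 65.3, 58.7, 67.6 and 69.1 FPKM on the injected side. With R33, msmo1 was at 71.3, 67.5, 66.96 and 68.2 FPKM contralaterally and at 70.4, 70.9, 65.98, 66.5 and 59.7 FPKM on the injected side. With R55, msmo1 was at 58.97, 67.1, 65.3, 84.5 and 63.1 FPKM contralaterally and at 68.1, 61.7, 64.01, 54.7 and 76.1 FPKM on the injected side. The highest and the lowest library were both from R55 mouse Q, contralateral and injected. The differences of msmo1 were 0.01 (95% interval -0.13 to 0.15) for R55 and 0.05 (95% interval -0.10 to 0.19) for R33.

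Dhcr7, which forms cholesterol from its last precursor, showed no separation either. Vehicle levels of dhcr7 were 15.1, 14.7, 14.9 and 14.7 FPKM contralaterally and 15.2, 14.01, 17.2 and 16.4 FPKM on the injected side. With R33, dhcr7 was at 15.2, 13.6, 13.6 and 15.2 FPKM contralaterally and at 11.2, 16.97, 14.7, 13.6 and 15.5 FPKM on the injected side. With R55, dhcr7 was at 15.2, 13.8, 14.6, 15.8 and 14.2 FPKM contralaterally and at 14.8, 12.9, 14.8, 13.1 and 16.4 FPKM on the injected side. The lowest value was the injected library of R33 mouse AD and the groups overlapped. Its differences were -0.07 (95% interval -0.19 to 0.06) and -0.09 (95% interval -0.21 to 0.04). Cyp51 (lanosterol demethylase), ebp (sterol isomerase) and sc5d (sterol desaturase) had R55 differences of 0.01, 0.10 and 0.02 and R33 differences of -0.0041, 0.11 and 0.05, with intervals across 0.

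Sterol-sensing genes, which set how much SREBP reaches the nucleus, gave 2 above and 3 below vehicle with each compound and 0 with an unadjusted p under 0.05. Srebf2 (chr15:82031382-82093201, plus strand) was measured at depth, on 4913 or more fragments a library. Vehicle levels of srebf2 were 75.8, 61.3, 78.7 and 67.5 FPKM contralaterally and 73.9, 61.5, 73.8 and 67.7 FPKM on the injected side. With R33, srebf2 was at 70.2, 60.9, 65.7 and 62.8 FPKM contralaterally and at 57.03, 72.3, 67.3, 63.4 and 64.2 FPKM on the injected side. With R55, srebf2 was at 67.9, 67.6, 66.2, 54.02 and 65.8 FPKM contralaterally and at 66.4, 73.5, 61.04, 74.5 and 72.04 FPKM on the injected side. Vehicle mouse J lay low among its group, at 61.3 and 61.5 FPKM, and vehicle mice AH and L at 73.8 FPKM or above. Its differences were -0.06 (95% interval -0.19 to 0.06) for R55 and -0.11 (SE 0.064, 95% interval -0.24 to 0.02, limma adjusted p = 0.850) for R33; without vehicle mouse J the R33 difference was -0.17, with an unadjusted p under 0.05 and a limma adjusted p = 0.291.

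Srebf1, the LXR target of the pair, varied more. Vehicle levels of srebf1 were 17.1, 16.02, 11.6 and 18.6 FPKM contralaterally and 17.9, 14.6, 16.9 and 16.3 FPKM on the injected side. With R33, srebf1 was at 15.4, 12.1, 17.6 and 15.6 FPKM contralaterally and at 10.2, 18.2, 14.2, 16.997 and 22.9 FPKM on the injected side. With R55, srebf1 was at 16.7, 15.4, 16.4, 16.6 and 18.8 FPKM contralaterally and at 18.5, 18.3, 12.6, 15.4 and 14.8 FPKM on the injected side. The injected R33 libraries of mice AD and O held the lowest and the highest value of all 27. Its differences were 0.02 (95% interval -0.20 to 0.25) and -0.04 (95% interval -0.27 to 0.19), the latter 0.04 without mouse AD.

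Insig1 (chr5:28276315-28283668, plus strand), itself an SREBP target, had a narrow range. Vehicle levels of insig1 were 36.999, 29.996, 31.9 and 29.2 FPKM contralaterally and 37.7, 29.8, 35.8 and 30.8 FPKM on the injected side. With R33, insig1 was at 36.8, 31.96, 27.7 and 33.2 FPKM contralaterally and at 36.1, 36.8, 31.99, 34.6 and 32.8 FPKM on the injected side. With R55, insig1 was at 32.6, 34.1, 32.7, 34.8 and 33.7 FPKM contralaterally and at 32.6, 31.2, 29.6, 26.6 and 36.97 FPKM on the injected side. All groups overlapped between 26.6 and 37.7 FPKM, and the differences were -0.01 (95% interval -0.14 to 0.12) for R55 and 0.03 (95% interval -0.10 to 0.17) for R33, or -0.0014 without mouse AD.

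Insig2, its relative with the same hold on SCAP, split the vehicle group. Vehicle levels of insig2 were 12.4, 16.4, 11.9 and 12.2 FPKM contralaterally and 12.4, 16.2, 12.1 and 13.2 FPKM on the injected side. With R33, insig2 was at 14.3, 15.1, 13.6 and 12.7 FPKM contralaterally and at 16.7, 11.1, 15.7, 13.9 and 13.2 FPKM on the injected side. With R55, insig2 was at 13.1, 14.6, 14.5, 14.9 and 13.6 FPKM contralaterally and at 12.3, 12.6, 14.7, 14.4 and 14.3 FPKM on the injected side. Mouse J was at 16.4 and 16.2 FPKM where the other vehicle libraries ran from 11.9 to 13.2. The differences were 0.06 (95% interval -0.08 to 0.20) and 0.07 (95% interval -0.08 to 0.22); without mouse J they were 0.15 (limma adjusted p = 0.343) and 0.16 (limma adjusted p = 0.319), both with an unadjusted p under 0.05. Scap differed by -0.06 with R55 and -0.06 with R33.

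Abca1 (chr4:53030787-53159900, minus strand), the member with the widest interval, loads cholesterol onto lipid-poor apolipoproteins such as APOE. Vehicle levels of abca1 were 4.83, 4.85, 3.305 and 5.55 FPKM contralaterally and 5.29, 4.73, 3.91 and 4.57 FPKM on the injected side. With R33, abca1 was at 2.401, 3.73, 5.25 and 4.696 FPKM contralaterally and at 1.88, 5.06, 3.93, 5.15 and 6.46 FPKM on the injected side. With R55, abca1 was at 3.305, 2.77, 3.59, 2.98 and 5.35 FPKM contralaterally and at 4.56, 4.88, 3.31, 4.0995 and 3.696 FPKM on the injected side. Libraries from R33 mouse AD were the lowest of the 27 on both sides, and contralateral R55 mice AA, AB, P and Q lay within 2.77 to 3.59 FPKM, at or below most vehicle libraries. The level per mouse was 4.63 ± 0.694 FPKM with vehicle (mean ± SD, n = 4 mice), 4.36 ± 1.405 FPKM with R33 (n = 5) and 3.85 ± 0.422 FPKM with R55 (n = 5). Its differences were -0.22 (SE 0.143, 95% interval -0.52 to 0.07, limma adjusted p = 0.631) for R55 and -0.14 (95% interval -0.44 to 0.16) for R33. Without mouse AD the R33 difference turned to 0.06 and the R55 difference, still -0.22, had an unadjusted p under 0.05 (limma adjusted p = 0.365).

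Abcg1, which exports sterol to mature lipoprotein particles, overlapped throughout. Vehicle levels of abcg1 were 14.2, 10.6, 14.6 and 15.7 FPKM contralaterally and 14.4, 14.2, 17.5 and 15.3 FPKM on the injected side. With R33, abcg1 was at 14.5, 15.4, 13.6 and 14.8 FPKM contralaterally and at 10.1, 15.7, 16.4, 16.6 and 18.1 FPKM on the injected side. With R55, abcg1 was at 15.4, 13.7, 17.9, 14.7 and 11.95 FPKM contralaterally and at 15.002, 14.7, 14.9, 17.03 and 13.1 FPKM on the injected side. The lowest values were from R33 mouse AD (injected) and vehicle mouse J (contralateral). The differences were 0.03 (95% interval -0.15 to 0.21) and 0.03 (95% interval -0.15 to 0.22). Stard4, a soluble sterol carrier, differed by -0.14 (95% interval -0.32 to 0.04) with R55 and -0.08 (95% interval -0.26 to 0.10) with R33.

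Nr1h3 (chr2:91014394-91033417, minus strand) was the third member by unadjusted p for R55. Vehicle levels of nr1h3 were 1.35, 1.83, 0.916 and 1.14 FPKM contralaterally and 1.25, 1.74, 1.19 and 1.49 FPKM on the injected side. With R33, nr1h3 was at 1.41, 1.18, 1.201 and 1.42 FPKM contralaterally and at 2.58, 1.74, 1.36, 1.53 and 1.58 FPKM on the injected side. With R55, nr1h3 was at 1.88, 1.33, 1.62, 1.77 and 1.53 FPKM contralaterally and at 1.83, 1.49, 1.44, 1.26 and 1.81 FPKM on the injected side. Injected R33 mouse AD held the highest value and contralateral vehicle mouse L the lowest. Its differences were 0.14 (SE 0.083, 95% interval -0.03 to 0.31, limma adjusted p = 0.610) for R55 and 0.10 (95% interval -0.07 to 0.28) for R33. Nr1h2 differed by 0.11 (95% interval -0.05 to 0.27) and 0.04 (95% interval -0.12 to 0.21), the latter -0.06 without mouse AD. Mylip, the ligase that marks the LDL receptor for breakdown, differed by -0.12 (95% interval -0.33 to 0.08) and -0.14 (95% interval -0.35 to 0.07), and soat1, which esterifies cholesterol, by 0.10 (95% interval -0.10 to 0.29) and 0.04 (95% interval -0.16 to 0.23).

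Cyp46a1 (chr12:108300493-108328512, plus strand), the exit route of cholesterol from neurons, was the highest member in FPKM. Vehicle levels of cyp46a1 were 94.3, 90.3, 111 and 87.4 FPKM contralaterally and 92.7, 80.7, 108 and 91.9 FPKM on the injected side. With R33, cyp46a1 was at 118, 98.96, 100 and 103 FPKM contralaterally and at 108, 79.1, 92.2, 103 and 70.8 FPKM on the injected side. With R55, cyp46a1 was at 97.6, 111, 92.4, 111 and 108 FPKM contralaterally and at 92.7, 97.8, 103, 110.3 and 103 FPKM on the injected side. The lowest pair of values came from injected R33 mice O and AE, and the highest from contralateral R33 mouse AD, so that R33 alone spanned the whole range. Per mouse the level was 94.5 ± 10.3 FPKM with vehicle (mean ± SD, n = 4 mice), 95.1 ± 12.9 FPKM with R33 (n = 5) and 103 ± 6.29 FPKM with R55 (n = 5). Its differences were 0.12 (95% interval -0.03 to 0.28) for R55 and 0.03 (95% interval -0.13 to 0.19) for R33. Without mouse AD the R33 difference was -0.03, and without vehicle mouse L the R55 difference was 0.19, with an unadjusted p under 0.05 and a limma adjusted p = 0.662.

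**Figure D4:**
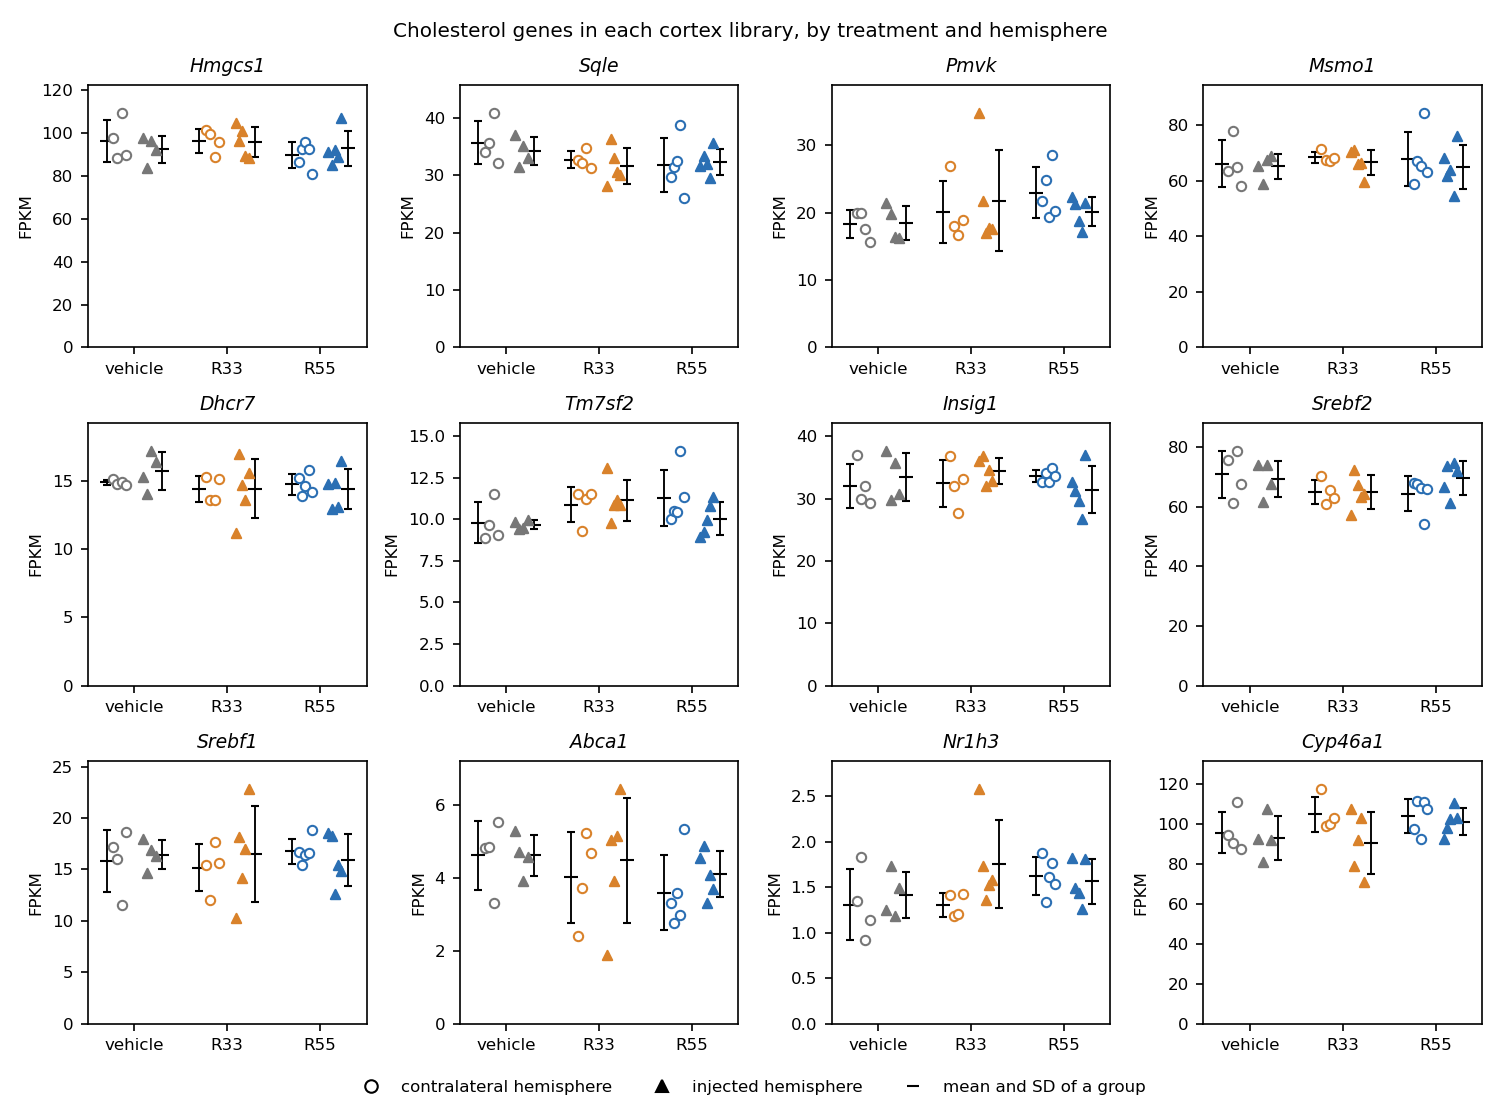
FPKM (y axis, from 0) of 12 genes in each of the 27 libraries by treatment (x axis), with open circles for the contralateral and triangles for the injected hemisphere and black bars for the mean ± SD of each group of 4 or 5. Groups overlap in every panel, and the injected R33 library at 34.9 FPKM for pmvk and 1.88 FPKM for abca1 is that of mouse AD.

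Fits on 1 hemisphere alone hold 1 library per mouse. On the injected side, 0 members had an unadjusted p under 0.05 with R55 (all genes 1.09%) or with R33 (1.84%). On the contralateral side, 2 members did with R55 (all genes 11.5%) and 0 with R33 (2.96%). Those 2 were nr1h2, with a difference of 0.24 (SE 0.102, 95% interval 0.02 to 0.46, limma adjusted p = 0.413), and pmvk, with 0.30 (SE 0.141, 95% interval 0.00028 to 0.61, limma adjusted p = 0.434). Neither kept an unadjusted p under 0.05 under median-of-ratios scaling (0.20 and 0.27) or with the length trend removed (0.13 and 0.18), where sqle alone had one (-0.21, all genes 11%, and -0.24, all genes 6.21%). Without mouse Q, whose contralateral library followed transcript length, nr1h2 (0.27) and sqle (-0.25) had one against 8.12% of all genes, and pmvk (0.22) did not. On the injected side the R55 differences of nr1h2 and pmvk were -0.01 (95% interval -0.25 to 0.23) and 0.12 (95% interval -0.25 to 0.50). The test of the difference between the hemispheres itself gave 0 members with an unadjusted p under 0.05 for R55 (all genes 1.84%) and 0 for R33 (0.378%). The smallest p was that of nr1h2 for R55, at -0.25 (SE 0.152, 95% interval -0.57 to 0.06, limma adjusted p = 0.999); with the correlation between hemispheres of a mouse modelled, its unadjusted p was under 0.05 and its limma adjusted p = 0.796. Intervals of these differences were wide, since 20 of 30 members for R55 and 21 of 30 for R33 had theirs within ±0.5.

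R55 and R33 are both thiophene thioureas and were given at the same dose and time, so that their readouts can be set against each other directly. In this 1 pair of compounds, 0 members and 0% of all genes were called, and 0 members against 1.15% of all genes had an unadjusted p under 0.05. Of the 30 members, 10 were higher and 20 lower with R55 than with R33, with a median of -0.01, and every interval lay within ±0.5, with half-widths of 0.10 to 0.29. The smallest p values belonged to nsdhl, hmgcs1 and cyp46a1, of which nsdhl takes part in removing the C4 methyl groups of the sterol ring. Vehicle levels of nsdhl were 18.7, 14.3, 20.2 and 11.6 FPKM contralaterally and 18.6, 13.6, 18.8 and 15.8 FPKM on the injected side. With R33, nsdhl was at 17.3, 16.8, 15.4 and 18.6 FPKM contralaterally and at 23.6, 17.4, 17.1, 17.7 and 16.04 FPKM on the injected side. With R55, nsdhl was at 16.9, 16.8, 16.1, 17.2 and 13.7 FPKM contralaterally and at 15.8, 17.6, 15.03, 13.7 and 18.6 FPKM on the injected side. R33 mouse AD again held the highest nsdhl value. Differences between R55 and R33 were -0.12 (SE 0.087, 95% interval -0.30 to 0.05, limma adjusted p = 0.9998) for nsdhl, -0.07 (95% interval -0.18 to 0.03) for hmgcs1 and 0.09 (95% interval -0.06 to 0.24) for cyp46a1. Abca1 had the widest interval, -0.08 (95% interval -0.37 to 0.21). Without R33 mouse AD, 4 members had an unadjusted p under 0.05: abca1 (-0.28), cyp46a1 (0.15), nr1h2 (0.17) and pmvk (0.22), with limma adjusted p values of 0.436 to 0.482, against 10.3% of all genes; 15 of the 30 members were then higher and 15 lower.

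The injected and contralateral hemispheres were compared over the mice of all 3 treatments. In R33 and R55 mice the injected side also received the compound, so this comparison cannot set the injection itself apart from it. Vehicle mice alone are given at the end. No member and 0% of all genes were called, and 0 members against 3.47% of all genes had an unadjusted p under 0.05. This fit and its intervals do not pair the hemispheres of a mouse. With mouse as a fixed block, more of all genes had an unadjusted p under 0.05, as given in the last section. Of the 30, 17 were higher and 13 lower on the injected side, with a median of 0.0079. By role, all 6 early mevalonate genes were below 0 (-0.03 to -0.0019), all 3 transport genes and all 3 around LXR above 0 (0.0055 to 0.10), each with an interval across 0. The smallest p was that of cyp46a1, lower on the injected side in 10 of 13 mice with both libraries, at -0.10 (SE 0.062, 95% interval -0.23 to 0.03, limma adjusted p = 0.9999). Hsd17b7, a sterol 3-ketoreductase, was next. Vehicle levels of hsd17b7 were 7.17, 6.06, 8.303 and 6.93 FPKM contralaterally and 7.22, 6.76, 6.92 and 7.29 FPKM on the injected side. With R33, hsd17b7 was at 6.17, 7.33, 6.03 and 6.84 FPKM contralaterally and at 6.301, 7.697, 7.31, 7.17 and 6.22 FPKM on the injected side. With R55, hsd17b7 was at 5.78, 7.19, 7.49, 5.07 and 5.62 FPKM contralaterally and at 7.17, 6.87, 6.996, 6.16 and 8.51 FPKM on the injected side. The hemispheres overlapped in every treatment, with the injected library higher in 8 of 13 mice, and the difference was 0.09 (95% interval -0.03 to 0.20). Nr1h3 was higher in 8 of 13 mice, with 0.09 (95% interval -0.05 to 0.23). In the 4 vehicle mice alone, 0 members had an unadjusted p under 0.05 against 1.08% of all genes, and the smallest p was that of nr1h2, for a difference of 0.13 (95% interval -0.10 to 0.37).

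Of 42 further genes of the pathway listed beside the members, 39 were tested and 0 were called in any of the 4 comparisons over all libraries. For R55, 4 had an unadjusted p under 0.05, all lower than vehicle, among them fasn (fatty acid synthase), scarb1 (a lipoprotein receptor) and ldlr (the LDL receptor). The differences of these 3 were, in that order, -0.22 (95% interval -0.40 to -0.04), -0.13 (95% interval -0.25 to -0.02) and -0.19 (95% interval -0.37 to -0.01) for R55. For R33 they were -0.20 (95% interval -0.38 to -0.01), -0.17 (95% interval -0.29 to -0.06) and -0.23 (95% interval -0.42 to -0.05). These intervals take both hemispheres of a mouse as independent and may be too narrow, and both compounds share the 4 vehicle mice. With the injected side fitted alone, the intervals of fasn and ldlr crossed 0 for both compounds. That of scarb1 crossed 0 for R33 but not for R55 (-0.17, 95% interval -0.33 to -0.0042). For R33, 6 of the 39 had an unadjusted p under 0.05, 2 higher and 4 lower than vehicle, and for R55 against R33 there was 1; over all genes the shares were 8.45% for R55, 5.87% for R33 and 1.15% for R55 against R33.

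The receptor gene ldlr, an SREBP target, had these levels. Vehicle levels of ldlr were 10.2, 8.99, 11.2 and 11.3 FPKM contralaterally and 11.8, 9.55, 10.7 and 10.7 FPKM on the injected side. With R33, ldlr was at 9.57, 7.61, 8.09 and 10.3 FPKM contralaterally and at 5.77, 11.3, 8.32, 8.42 and 11.4 FPKM on the injected side. With R55, ldlr was at 8.36, 8.22, 9.35, 9.01 and 9.27 FPKM contralaterally and at 9.39, 9.64, 8.24, 8.66 and 11.001 FPKM on the injected side. Vehicle libraries ran from 8.99 to 11.8 FPKM, R33 from 5.77 to 11.4 and R55 from 8.22 to 11.001, with the lowest again in injected R33 mouse AD. Between hemispheres, 2 of the 39 had an unadjusted p under 0.05 (all genes 3.47%): acss2, the cytosolic acetyl-CoA synthetase, at 0.12 (SE 0.043, 95% interval 0.03 to 0.21, limma adjusted p = 0.9999), and gramd1a, an Aster sterol carrier, at -0.14 (SE 0.059, 95% interval -0.26 to -0.02, limma adjusted p = 0.9999). Ch25h (cholesterol 25-hydroxylase) was at 0.30 (95% interval -0.05 to 0.65).

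Synthesis enzymes varied together from library to library once treatment and hemisphere were taken out. The median Pearson r was 0.364 over the 136 pairs of the 17 tested enzymes, with 83.8% of pairs above 0, and 0.03 over all pairs of tested genes. These are descriptions, since libraries of one mouse, library depth and base composition are shared between genes. Insig1 went with the enzymes (median r 0.517), srebf2 little (0.0964), and insig2, srebf1 and abca1 against them (-0.12, -0.25 and -0.51). Over the 14 mice, with hemispheres averaged, the medians were 0.277 for enzyme pairs, 0.562 with insig1, 0.536 with srebf2 and -0.48 with abca1. Leaving out R33 mouse AD gave 0.384 for enzyme pairs, 0.546 with insig1 and -0.31 with abca1; removing the length trend gave 0.349, 0.514 and -0.20, and 0.3996 with srebf2.

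**Figure D5:**
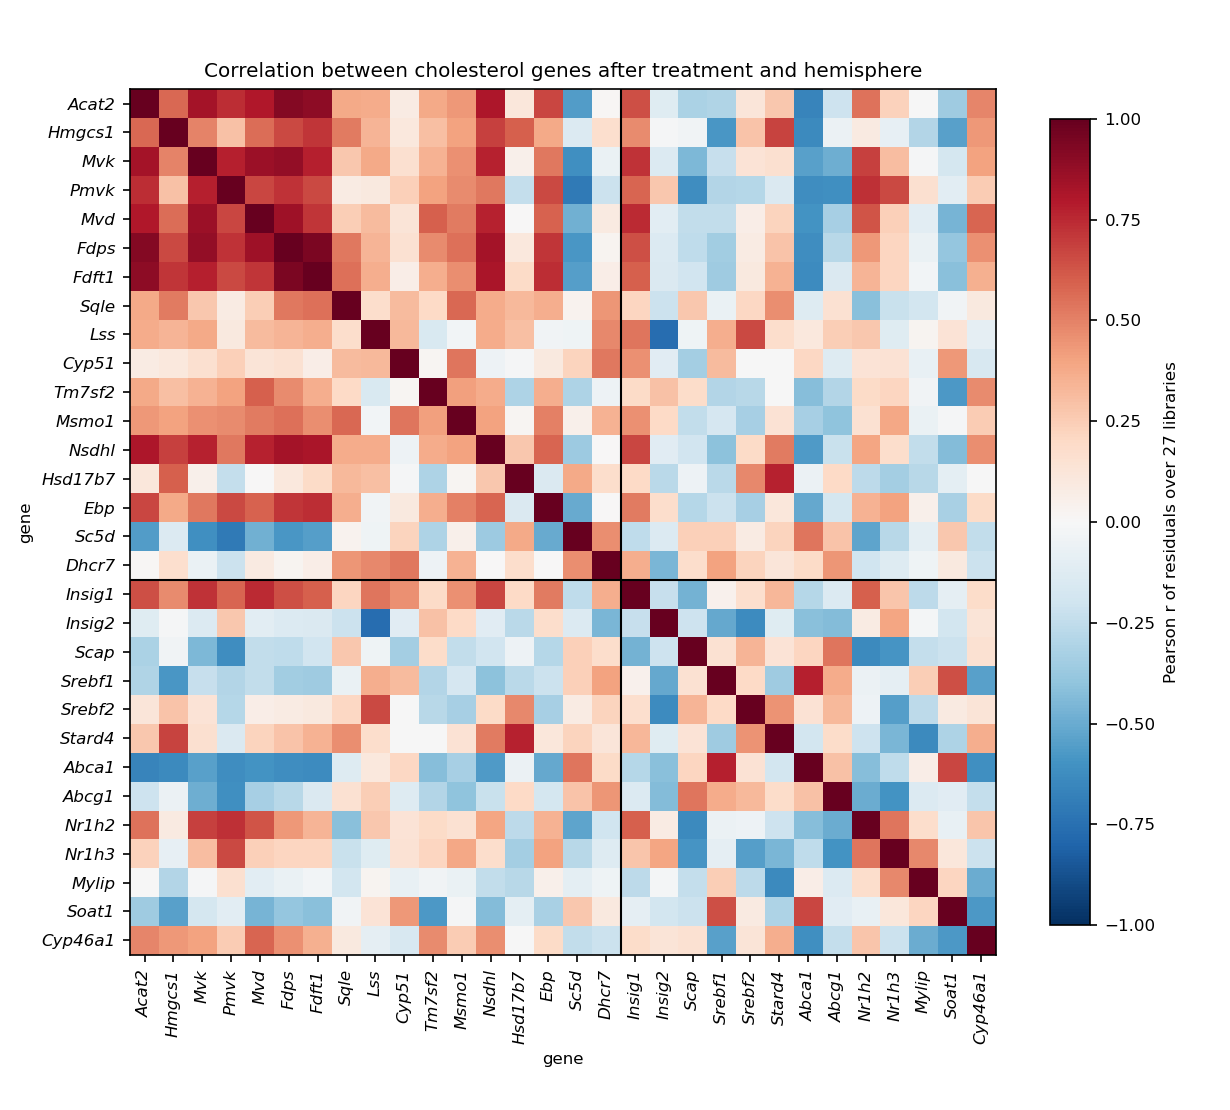
Pearson r between the 30 tested genes over 27 libraries after removal of treatment and hemisphere means, with the 17 synthesis enzymes before the black line and the other 13 genes after it. The red block from acat2 to fdft1 holds the highest values (fdps with fdft1 at 0.942), and abca1 is blue against it.

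Among the 435 pairs of members over the 14 mice, 45 had a Benjamini-Hochberg adjusted permutation p under 0.05 by Pearson's r (32 positive, 13 negative). The tests were two-sided with 100000 permutations, and 15 of the 45 pairs passed by Spearman's rho as well. The share over pairs of all tested genes is not given here, so these counts describe the member pairs only. The highest was fdps with fdft1, consecutive enzymes on the way to squalene, with r = 0.965 and rho = 0.886 (permutation p = 1e-05, the smallest the permutations can give, and 7e-05; adjusted 0.0035 and 0.0076). It was 0.944 without the 2 mice farthest from the median of fdps, and 0.953 within the 9 mice with 1-letter labels. Mvk with mvd gave r = 0.850 and rho = 0.851 (permutation p = 0.00011 and 0.00027, adjusted 0.0060 and 0.0168), 0.766 without the 2 farthest mice and 0.942 within the 9 mice. Mvk with insig1, whose upstream stretches are printed above, gave r = 0.839 and rho = 0.815 (permutation p = 0.00038 and 0.00075, adjusted 0.0118 and 0.0297), 0.786 without the 2 farthest and 0.754 within the 9. Srebf1 with abca1, a pair of LXR targets, gave r = 0.852 and rho = 0.886 (permutation p = 3e-05 and 7e-05, adjusted 0.0035 and 0.0076). The r was 0.876 without the 2 farthest mice, 0.846 without mouse AD and 0.887 within the 9. Both transcripts are long (4522 and 10260 bases), and no value with the length trend removed is given here for this pair. Lss with insig2 gave r = -0.84 and rho = -0.78 (permutation p = 0.00017 and 0.00167, adjusted 0.0082 and 0.0484), -0.65 without the 2 farthest and -0.85 within the 9. Stard4 with mylip gave r = -0.83 and rho = -0.88 (permutation p = 0.00037 and 7e-05, adjusted 0.0118 and 0.0076), -0.77 without the 2 farthest and -0.83 within the 9. The 5 mice with 2-letter labels were too few for a value of their own.

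The 9 mice with 1-letter labels, 3 per treatment, were also fitted alone, a choice made after seeing the data; what the label series stand for is not given. With R55, 3 members had an unadjusted p under 0.05, mylip (-0.31), pmvk (0.22) and tm7sf2 (0.18), against 8.74% of all genes. With R33, mylip (-0.27) had one against 3.88% of all genes, and for R55 against R33 abca1 (-0.28) and pmvk (0.21) did against 4.19%. None was called, and the smallest adjusted p (limma) was 0.458. The 5 mice with 2-letter labels hold 1 vehicle mouse, AH, and 2 each for R33 and R55, too few for a test here. Their R55 difference of mylip lay on the other side of 0, at 0.28.

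Marker lists of cell types and regions were set beside the members, with 0 markers called. Over both hemispheres, all 8 oligodendrocyte markers were above vehicle with R55 (median 0.14) and with R33 (0.26). So were 6 of 6 astrocyte markers with R55 (0.17), 5 of 6 with R33 (0.21), and 0 of 5 endothelial markers with either (-0.12 and -0.19). Of all tested genes, 60.2% were above vehicle with R55 and 57.5% with R33. With R55, all 8 oligodendrocyte markers were below vehicle on the injected side (-0.33 to -0.13). Contralaterally, all 8 were above it (0.36 to 0.61). The astrocyte marker gfap was also below vehicle on the injected side with R55 (-0.08). All 5 striatum markers were below vehicle with R55 (-0.26) and above it with R33 (0.17) over both hemispheres, each with an interval across 0. On the injected side alone, these 5 were at -0.86 to -0.48 with R55, also with intervals across 0. Fibroblast markers were above vehicle in 4 of 4 with both compounds (medians 0.41 and 0.16). Cortex (4 of 6 above with R55, 2 of 6 with R33), microglia (4 of 6 and 2 of 6) and neuron markers (3 of 6 and 4 of 6) made up the rest. In summed FPKM per library, oligodendrocyte markers ran from 594 to 2473 with vehicle, 1306 to 2866 with R33 and 1051 to 2242 with R55, and astrocyte markers from 512 to 1242 with vehicle, 749.6 to 1478 with R33 and 746 to 1409.9 with R55. Neuron markers ran from 2016 to 3173 with vehicle, 2094 to 3195 with R33 and 2365 to 3226 with R55, microglia markers from 273 to 438 with vehicle, 236 to 448 with R33 and 205 to 559 with R55, endothelial markers from 35.2 to 80.2 with vehicle, 26.8 to 80.2 with R33 and 27.1 to 111 with R55, and fibroblast markers from 5.07 to 34.6 with vehicle, 7.35 to 49.2 with R33 and 6.47 to 39.1 with R55. Cortex markers ran from 549.8 to 880.0 with vehicle, 395 to 731 with R33 and 613 to 719 with R55, and striatum markers from 38.6 to 149.6 with vehicle, 32.5 to 206 with R33 and 31.7 to 64.7 with R55. No listed marker was at 0 in all libraries. Over the 14 mice, the mean of the 17 enzymes had r = 0.594 with cortex markers, 0.357 with microglia, 0.359 with fibroblast, 0.273 with neuron, -0.04 with astrocyte, -0.28 with striatum, -0.38 with oligodendrocyte and -0.57 with endothelial markers, given as descriptions; their part in the results was not tested.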

How the data were processed

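Cortex RNA was sequenced with a stranded mRNA kit in paired-end reads and aligned by the authors with HISAT2 to GRCm39; the counter and its use of strand are not given in the sources used here. The deposited values are FPKM per gene and library, with depth and transcript length divided out by the authors. Of the 32 library columns, 27 were matched to samples and 5 were not used, and 32 leftover header rows were dropped. Every FPKM value was a whole multiple of what 1 fragment is worth, so that whole fragments were recovered for 100% of genes above 0 (15932200 to 38077000 fragments per library); depth limits precision for nr1h3 and idi1 most.

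Values were tested as log2(FPKM + 1) on the 12976 genes whose mean over the 27 libraries reached 1 FPKM, by limma 3.58.1 in R 4.3.3 with treatment and hemisphere as terms, a trended prior and p-values adjusted over every tested gene by the Benjamini-Hochberg method. The log2(FPKM + 1) scale understates changes of low genes. The study's own test was DESeq2, which was not run here. An alternative was limma voom on the recovered fragments. Hemispheres were also fitted alone, and interactions with 1 mean per group. The authors' normalization is per library and does not remove the length trends given in the report. Both libraries of a mouse carry its label and come from the same animal. Their deviations from the fit had a mean correlation of 0.317 (-0.30 to 0.639 over 13 pairs). The pairing rests on the labels, since no such value between different mice is given beside it. The fits were tested on simulated data, and libraries were compared with one another for duplicates (log2 correlation 0.946 to 0.996).

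The members and lists were chosen with earlier results of these data known. Library values are given for 12 preset genes, for the 3 members with the smallest p in each comparison over all libraries, and for ldlr, which was chosen after its values were seen among the 4 listed further genes with the smallest p; 1 of those genes is not reported here. Alternatives were another pseudocount (0.1), no filter, median-of-ratios scaling, a lowess length trend removed (span 0.3), the number of letters in the mouse label as a covariate, the replicate block by mouse, 1 value per mouse and each mouse left out. Fits on mice with 1-letter or 2-letter labels and the covariation without mouse AD, with the length trend removed or over the 14 mice were added after seeing the data. Correlations were computed on residuals of the fit with numpy 2.4.6 and scipy 1.17.1. Gene positions and overlaps are from GENCODE M39.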

Additional observations from a re-analysis of the deposited data

Results flagged for a closer look

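Within groups of 4 or 5 libraries, the lowest or highest value was set against the gap to its nearest neighbour by Dixon's ratio for the 17 members with library values. Of 102 groups, 5 held a value that stood apart, near the 1 in 20 that chance gives. Insig2 in the contralateral cortex of vehicle mouse J was at 16.4 FPKM, where the other 3 libraries ran from 11.9 to 12.4. Srebf2 in the contralateral cortex of R55 mouse Q was at 54.0 FPKM, against 65.8 to 67.9. Tm7sf2 in the contralateral cortex of R33 mouse K was at 9.29 FPKM, against 11.2 to 11.5. The injected library of R33 mouse AD stood apart for pmvk, at 34.9 FPKM against 16.98 to 21.7, and for nsdhl, at 23.6 FPKM against 16.04 to 17.7.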

How the results depend on the processing

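Across 240 alternatives of the 11 comparisons, limma called 0 members, voom on recovered fragments included, and the lowest adjusted p of a member was 0.161. With each mouse left out, members at an unadjusted p under 0.05 numbered 0 to 3 for R55, 0 to 3 for R33, 0 to 4 for R55 against R33, 0 to 4 for R55 contralaterally and at most 1 elsewhere. Without vehicle mouse J, the counts were 3 for R55 and 3 for R33, where 12.9% and 12.8% of all genes had such a p. With mouse as a replicate block, modelled as a correlation or as a fixed term, 0 members were called, genes at an unadjusted p under 0.05 fell from 1096 to 519 for R55 and from 762 to 292 for R33, and the 1 gene called for R55 was lost. Between hemispheres they numbered 795 with mouse as a fixed block, against 450. Of 1200 alternatives for 50 single-gene differences, 1156 kept their direction and 44 reversed; the cause was not tested.

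Under median-of-ratios scaling, the R55 difference of msmo1 was -0.0112. With the length trend removed, msmo1 was at -0.0564 for R55 and -0.00579 for R33, and cyp46a1 at -0.00762 for R33. Among mice with 1-letter labels, R55 values were 0.0466 for insig1 and 0.0161 for nsdhl, and R33 values 0.0935 for abca1, -0.000125 for msmo1, -0.00487 for cyp46a1 and 0.0631 for srebf1. Among mice with 2-letter labels, where vehicle is 1 mouse whose hemispheres stand in for its spread, R55 values were -0.0281 for srebf1 and -0.0110 for msmo1, R33 values -0.0249 for insig1 and -0.0986 for abcg1, and cyp46a1 was at -0.0347 for R55 against R33. Over each mouse left out, R55 ranges were -0.0451 to 0.0834 for abcg1, -0.0392 to 0.0630 for srebf1, -0.00728 to 0.0272 for msmo1, -0.0502 to 0.0537 for insig1 and -0.0908 to 0.0734 for nsdhl. For R33 they were -0.00300 to 0.224 for pmvk, -0.245 to 0.0559 for abca1, -0.00699 to 0.0971 for insig1, -0.0149 to 0.0685 for hmgcs1, -0.0304 to 0.105 for cyp46a1, -0.0368 to 0.108 for abcg1 and -0.114 to 0.0393 for srebf1. Depth limits nr1h3 (37 to 155 fragments) and idi1 (5 to 21).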
